A study of Mus musculus with 12 samples.

Results

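The CpG methylation of 38 pluripotency genes of mouse embryonic stem (ES) cells was followed in 12 cell lines. The genes were listed by name rather than by a methylation threshold, with earlier results of these data known, out of 21938 protein-coding genes of the mm10 annotation. For each gene, all CpG sites from 5 kb upstream of the annotated start to the gene end were taken and split into a start region (within 1 kb of the start), the remaining upstream part and the gene body. These windows held 18654 of the 21867550 CpG sites in the data, with 2988 in start regions, 1889 upstream and 13777 in bodies. At least 1 read covered 14651 of them in some line, and 83 were covered in all 12 lines, so levels were summed over a region rather than read at single sites. Expression was not measured here, and every value is a methylation level.

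ES cells renew themselves through a small circuit of transcription factors in which Pou5f1 (OCT4), Sox2 and Nanog bind each other's regulatory DNA. Leukemia inhibitory factor, acting through its receptor Lifr and the transcription factor Stat3, and naive-state factors such as Klf4, Esrrb and Tfcp2l1 hold the circuit in place, whereas Otx2 and Zic2 mark the step towards the primed state of the epiblast. Methyl groups on CpG cytosines are placed de novo by DNMT3A and DNMT3B and copied at replication by DNMT1. In differentiating embryos the promoters of several of these genes, Pou5f1, Nanog and Dppa3 among them, are known to gain methylation.

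All 12 lines were Dnmt1, Dnmt3a and Dnmt3b triple-knockout (TKO) mouse ES cells, so that the methylation could come from the introduced enzyme alone. The cells had been given a pPyCAGIZ vector with human DNMT3A1 or DNMT3B1, either wild-type (WT) DNMT3B or its N656I, K777A or N779A mutant, and there were 2 lines in each of 6 groups. WT DNMT3B was made as 2 sets, called WT set a and WT set b after the letters in their labels. Every line was grown on gelatin with 15% fetal bovine serum and 1000 U/ml leukemia inhibitory factor, selected in 50 µg/ml Zeocin (for 10 days per the labels, longer per the methods) and kept in 25 µg/ml. The methods describe both pooled and single-cell-derived clonal lines without saying which were sequenced. No line with an empty vector was analysed here, so the background of unconverted cytosines at these genes was not measured, and the genotype itself cannot be checked in methylation data.

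The lines held 16224222 to 36029921 reads on CpG sites and, in the 38 windows, 17457 to 42144. Line 2 of WT set a stood apart: its reads fell on 1030180 CpG sites at 15.7 reads per covered site, against 2.55 to 5.18 in the other lines, and on 1266 sites of the windows against 4082 to 10762. Counts over all lines and comparisons with WT set a are also given without it. A region entered a summary over genes when it had at least 10 reads in every line. Start regions passed for 26 of the 38 genes, upstream parts for 18 and bodies for 33. The windows of Utf1, Fgf4, Fbxo15 and Stat3 also overlap another protein-coding gene (Kndc1, Fgf3, Timm21 and Stat5a). With 2 lines a group, a single value compared between 2 groups by an exact two-sided permutation test cannot fall below p = 0.33.

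The DNA just before the transcription starts is shown first, since it lies within the stretch of low methylation around the starts. Promoters of 22 of the 38 genes were matched by symbol in a RefSeq table (build GRCm38.p6), and their 250 bases before the start held a median of 11 CpG sites, against 6 over all 32851 promoters of the table. Of the 20 with at least 10 reads over the 12 lines together, 17 were methylated at under 5% of reads, as were 69.6% of the 23152 promoters of the table with as many reads. Below, every CpG is in capitals, 5′ to 3′ on the strand of the gene. Pou5f1 lies at chr17:35505782-35506031 (plus strand), Nanog at chr6:122707239-122707488 (plus), Klf4 at chr4:55532476-55532725 (minus), Tdgf1 at chr9:110946159-110946408 (minus) and Esrrb at chr12:86360867-86361116 (plus).
Pou5f1: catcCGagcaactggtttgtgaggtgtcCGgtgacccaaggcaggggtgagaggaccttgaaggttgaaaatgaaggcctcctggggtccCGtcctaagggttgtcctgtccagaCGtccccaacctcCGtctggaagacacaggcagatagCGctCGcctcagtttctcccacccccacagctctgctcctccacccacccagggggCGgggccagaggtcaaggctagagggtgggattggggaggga
Nanog: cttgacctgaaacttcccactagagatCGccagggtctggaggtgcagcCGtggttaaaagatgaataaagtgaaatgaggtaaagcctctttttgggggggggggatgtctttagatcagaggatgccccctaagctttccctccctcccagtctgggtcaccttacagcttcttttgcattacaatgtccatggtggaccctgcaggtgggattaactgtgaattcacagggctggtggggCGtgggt
Klf4: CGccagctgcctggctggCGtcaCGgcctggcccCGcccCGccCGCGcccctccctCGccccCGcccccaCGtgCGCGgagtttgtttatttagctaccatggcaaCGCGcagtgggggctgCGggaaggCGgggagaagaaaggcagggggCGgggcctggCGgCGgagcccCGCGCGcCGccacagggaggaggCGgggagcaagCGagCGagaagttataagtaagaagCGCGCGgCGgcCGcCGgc
Tdgf1: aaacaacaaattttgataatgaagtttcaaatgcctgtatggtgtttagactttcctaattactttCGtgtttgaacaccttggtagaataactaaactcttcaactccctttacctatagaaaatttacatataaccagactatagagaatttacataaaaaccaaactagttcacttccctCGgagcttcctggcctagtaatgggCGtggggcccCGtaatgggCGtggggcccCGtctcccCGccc
Esrrb: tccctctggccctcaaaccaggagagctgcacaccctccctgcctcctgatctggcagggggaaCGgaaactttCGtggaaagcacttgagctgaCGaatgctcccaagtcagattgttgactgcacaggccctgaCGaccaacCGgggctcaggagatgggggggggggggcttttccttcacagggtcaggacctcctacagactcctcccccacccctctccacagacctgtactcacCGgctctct

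These 5 promoters were chosen to show the range of CpG content and of methylation. Klf4, a naive-state factor and reprogramming gene, had 32 CpG sites, and none of 101 reads on them was methylated. Of these reads 43 came from K777A, 33 from N779A, 19 from N656I, 5 from WT set b and 1 from DNMT3A, so DNMT3A and WT DNMT3B were hardly measured there. Nanog, with 3 sites, also had none of 99 reads methylated, 37 of them from DNMT3A. Pou5f1, with 8 sites, had 2 of 101 methylated, with 6 reads from DNMT3A and none from WT set a. Tdgf1, the Nodal co-receptor Cripto, had 16 of 337 reads methylated over 7 sites, and 15 of those 16 came from the 35 reads of the DNMT3A lines. The 5 Tdgf1 sites nearest the start, at 5 to 42 bases before it, each had 3 of 7 reads methylated in the DNMT3A lines and none in both WT sets. The Esrrb promoter, with 6 sites, had 3 of 21 reads methylated, too few to place it above the others. Reads of one fragment cover neighbouring sites together, so these are not independent molecules.

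Start regions were nearly unmethylated in every group. In 18 of the 26 genes that passed, the level stayed under 10% in all 12 lines, which was also the case for 74.7% of all genes (20 of 26 and 77.1% in the lines other than WT set a line 2). The median over the 26 start regions was 1.69% and 0.412% in the DNMT3A lines (all genes 1.32% and 1.21%) and 0% to 1.32% in the 10 DNMT3B lines. Pou5f1, the master regulator of pluripotency, had 3.45% and 0% in the DNMT3A lines, 0% in both lines of WT set a, 3.88% and 0% in N656I, 3.39% and 0% in WT set b, 0% in both K777A lines, and 4.17% and 2.08% in N779A. Nanog reached 2.47% in DNMT3A line 1, 1.67% in N656I line 1 and 2.63% in N779A line 2, and was at 0% in the other 9 lines. Sox2, the DNA-binding partner of OCT4, ranged from 0% in 3 lines to 2.38% in WT set b line 1. Counting error alone spans these values: 2 methylated of 84 reads for the last of them gave a 95% Wilson interval of 0.655% to 8.27%, and none of 36 reads at Sox2 in WT set a line 2 allows a level of up to 8.33%. Such limits, here and below, take reads as independent. Reads of one fragment cover neighbouring sites, so the true limits are wider.

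The lowest start regions by mean over the 12 lines were those of Lin28a, an RNA-binding protein that blocks let-7 processing, Jam2, a junctional adhesion molecule, and Tbx3, a T-box factor. The Lin28a start had 2.11% in DNMT3A line 1 and 1.32% in WT set a line 1, and 0% in all other lines. Jam2 had 0.680% and 0.439% in the DNMT3A lines, 0% in both lines of WT set a, 0.570% and 0.265% in N656I, 0% in both lines of WT set b, 0.526% and 0.352% in K777A, and 2.55% and 0% in N779A. Tbx3 had 0% and 0.671% in the DNMT3A lines, 0.452% and 1.14% in WT set a, 0% in both N656I lines, 1.52% and 0% in WT set b, 0% and 1.25% in K777A, and 0% and 0.397% in N779A. Both lines of DNMT3A, N656I and K777A were above the 4 WT lines at Jam2, and at Tbx3 both N656I lines were below those of WT set a, with every value under 3%.

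The highest start regions among those that passed were those of Otx2, Lefty1 and Dppa3. Otx2, a homeobox factor of the primed state, had 10.6% and 17.9% in the DNMT3A lines, 14.3% and 4.92% in WT set a, and 0% to 1.08% in the 8 other lines. Lefty1, a secreted Nodal antagonist, had 15.4% and 10.5% in the DNMT3A lines, 13.8% and 0% in WT set a, 0% and 23.8% in WT set b, 0% in both N656I lines, 1.96% and 0% in K777A, and 1.89% and 4.76% in N779A. Dppa3 (Stella), which protects maternal methylation in the zygote, had 14% and 2.91% in the DNMT3A lines, 12.7% and 25.0% in WT set a, 1.27% and 1.69% in N656I, 1.55% and 8.33% in WT set b, 1.16% and 0% in K777A, and 0% and 10.0% in N779A. Its least covered line had 12 reads, and both lines of WT set a were above all other DNMT3B lines. Prdm14, a regulator that represses de novo methyltransferases in naive cells, was separate: 14% and 17.0% in the DNMT3A lines lay above 0% to 5.19% in the 10 DNMT3B lines. Prdm14, Lefty1 and Otx2 were the only 3 of the 26 genes above 5% in both DNMT3A lines, against 15.3% of all genes, and Prdm14 and Tfcp2l1 (3.81% and 2.70% against 0% to 2.22%) the only 2 with both DNMT3A lines above every DNMT3B line, against 11.3% of all genes (12.9% without WT set a line 2, with the same 2 genes).

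The remaining 12 start regions did not reach 10 reads in every line. Among them, Esrrb, an orphan nuclear receptor of the naive circuit, had 34.9% and 35.1% in the DNMT3A lines. Its DNMT3B lines lay lower, at 16.1% in WT set a line 1, 13.6% and 11.7% in N656I, 0% and 18.8% in WT set b, 1.92% and 1.25% in K777A, and 17.4% and 21.4% in N779A. Zfp42 (Rex1), a classic marker of undifferentiated cells, had 14% and 9.43% in the DNMT3A lines and 0% to 2.00% in the others. Lefty2 had 27.4% and 50.0% against 0% to 19.8%.

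For 5 genes the annotated start lay more than 1 kb from the start that RefSeq gives. At the RefSeq start, 38958 bp further downstream, Lifr had 1.89% and 2.78% in the DNMT3A lines and 0% to 1.51% in the others, in place of 80.0% and 100% over few reads at the annotated start. Fgf4, 14019 bp downstream, had 0.178% and 0% in place of 50.0% and 45.5%. Otx2 (6175 bp) had 4.55% and 14%, Jarid2 (1300 bp) 0% and 0.639%, and Dppa2 (6366 bp) 5.71% and 0%. Which start an ES cell uses was not tested.

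The unmethylated stretch around the annotated starts of the pluripotency genes reached further into the gene than that of genes in general. In the DNMT3A lines, the first 500 bp after the start were methylated at 2.03% over the pluripotency genes and at 2.73% over all genes. From 1000 to 1500 bp the values were 3.30% and 13.2%, from 1500 to 2000 bp 7.82% and 21.6%, and from 2000 to 2500 bp 13.9% and 27.7%. From 2500 to 3000 bp they were 23.1% and 30.3%, from 3000 to 3500 bp 15.5% and 31.6%, from 3500 to 4000 bp 18.9% and 32.9% and from 4000 to 4500 bp 15.9% and 33.3%. The pluripotency genes came near all genes from 4500 to 6000 bp, at 31.5% to 37.7% against 33.1% to 35.7%. From 7000 to 9000 bp they were again lower, at 11.5% to 19.5% against 35.6% to 37.1%, and the 4 other bins from 6000 to 10000 bp varied between 17.0% and 37.5% against 35.3% to 36.4%. These are descriptions of pooled reads with no test, and the bins were not matched for CpG density. The RefSeq starts of Jarid2, Otx2 and Dppa2 fall within them. On the upstream side the pluripotency genes were at 9.71% from 1500 to 1000 bp before the start, against 24.3% for all genes, and at 39.7% against 31.3% from 4000 to 3500 bp. In WT set b the values were 0.331% and 4.54% from 1000 to 1500 bp, and the pluripotency genes stayed lower in every bin from the start to 10000 bp, at 7.40% against 12.5% from 4500 to 5000 bp and 3.68% against 12.9% from 5000 to 5500 bp. This did not hold in every group. In K777A they were higher from 6500 to 7000 bp (8.40% against 6.97%) and from 8500 to 9000 bp (10.2% against 7.17%), and lower in the other bins after the start. In WT set a they were higher in some bins, with 26.3% against 14.9% from 5000 to 5500 bp.

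**Figure D1:**
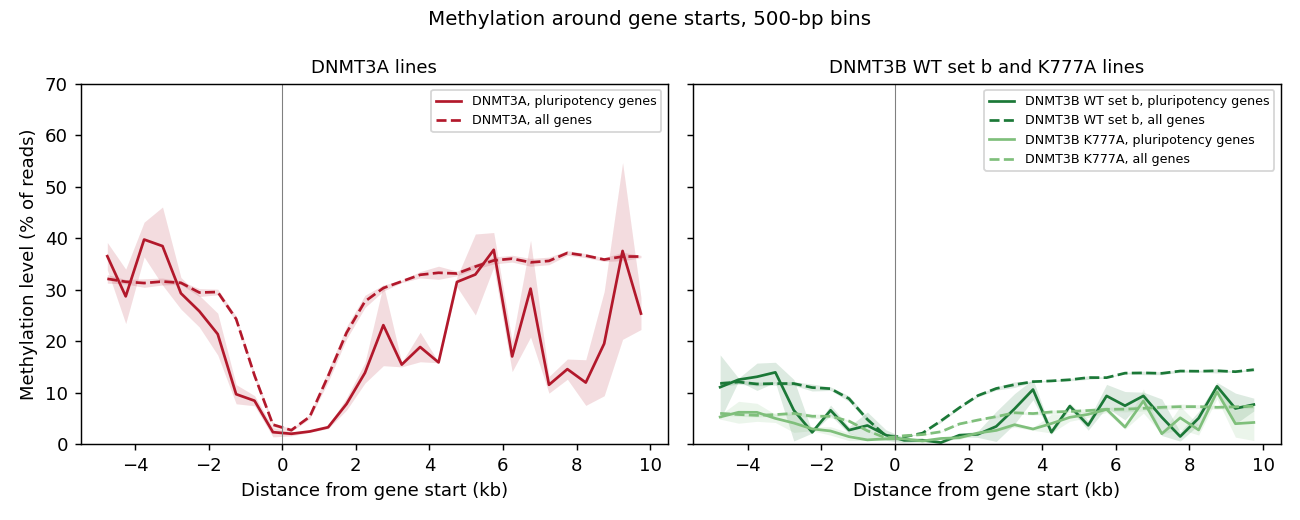
Methylation level (% of reads, y axis) in 500-bp bins by distance from the annotated gene start (kb, x axis), for the DNMT3A lines (left) and for the WT set b and K777A lines (right). Solid lines are the 38 pluripotency genes and dashed lines all protein-coding genes, each the mean of 2 lines with the shading spanning both. From 1000 to 1500 bp past the start the DNMT3A curve is at 3.30% for the pluripotency genes and at 13.2% for all genes.

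Upstream parts were more variable. Of the 18 that passed, 9 were above 20% in both DNMT3A lines, against 65.5% of all genes, and both DNMT3A lines lay above all 10 DNMT3B lines in 9, against 45.6% of all genes (9 and 54.6% without WT set a line 2). Sox2, Nodal and Nanog were the lowest. The Sox2 upstream part had 7% and 3.5% in the DNMT3A lines, 2.07% and 1.2% in WT set a, 0.800% and 0.901% in N656I, 0% in all 4 lines of WT set b and K777A, and 0% and 3.06% in N779A. That of Nodal, a TGF-beta ligand of the early embryo, had 4.82% and 3.23% in the DNMT3A lines, 3.45% and 0% in WT set a, 1.65% and 3.12% in N656I, 4.88% and 0% in WT set b, 1.18% and 1.80% in K777A, and 1.19% and 0% in N779A. Nanog had 8.05% and 4.46%, then 6% and 0%, 1.98% and 3.33%, 0% and 6.82%, 0% in both K777A lines, and 0% and 8.22% in the same order of groups. These 3 were the only genes of the 18 under 10% in all 12 lines, against 5.12% of all genes (the same 3 and 5.42% without WT set a line 2).

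Stat3, L1td1 and Klf5 had the highest upstream levels. Stat3 had 60% and 51.0% in the DNMT3A lines, 0% and 45.8% in WT set a, 25.0% and 0% in N656I, 33.3% and 0% in WT set b, 12.1% and 17.5% in K777A, and 21.4% and 14.9% in N779A, over 18 to 118 reads a line. L1td1, an RNA-binding protein derived from a transposon, had 27.4% and 35.4% in the DNMT3A lines, 18.5% and 21.6% in WT set a, 8.12% and 10.5% in N656I, 5.80% and 18.8% in WT set b, 9.52% and 18.1% in K777A, and 0% and 21.1% in N779A. Klf5, a Kruppel-like factor, had 27.2% and 59.2% in the DNMT3A lines, 7.69% and 0% in WT set a, 10.9% and 5.06% in N656I, 8.11% and 25.0% in WT set b, 3.74% and 9.52% in K777A, and 2.33% and 17.3% in N779A. The other 12 upstream parts that passed had 0% to 52.5% in the DNMT3A lines and 0% to 28.8% in the DNMT3B lines.

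Single sites were too thinly covered for a test. Of 63 sites picked as the best covered of the named genes, 17 had a read in all 12 lines, and the best of these had 3 reads in its least covered line. At the Nanog upstream site chr6:122704152-122704153, CCACGTGA with the CpG in the middle, 20% and 40.0% of reads were methylated in the DNMT3A lines and 0% in the 10 others, over 1 to 10 reads. The Klf4 body site chr4:55530935-55530936, GGCCGGGA, was at 0% in all 12 lines over 3 to 16 reads.

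Gene bodies of the pluripotency genes were less methylated than gene bodies in general. All bodies were cut from the annotated start, so those of Dppa2, Fgf4, Jarid2, Lifr and Otx2 take in the RefSeq start. The median over the 33 that passed was 16.6% and 22.3% in the DNMT3A lines, against 39.6% and 39.7% over 16099 genes. In the DNMT3B groups the medians ran from 1.74% in WT set a line 2 to 8.40% in N779A line 1, against 7.15% to 17.9%. Of the 33, 27 were below the median of all genes in both DNMT3A lines, as were 36.9% of all genes, and 17 were below it in all 12 lines, as were 8.88% (20 and 12.2% without WT set a line 2). Stat3 and Tfcp2l1 alone were above it in both DNMT3A lines. Only 12 bodies exceeded 20% in both DNMT3A lines, against 87.1% of all genes, and 6 (Pou5f1, Klf4, Tdgf1, L1td1, Myc and Mycn) stayed under 10% in all 12 lines, against 1.47% (the same 6 and 1.62% without WT set a line 2).

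**Figure D2:**
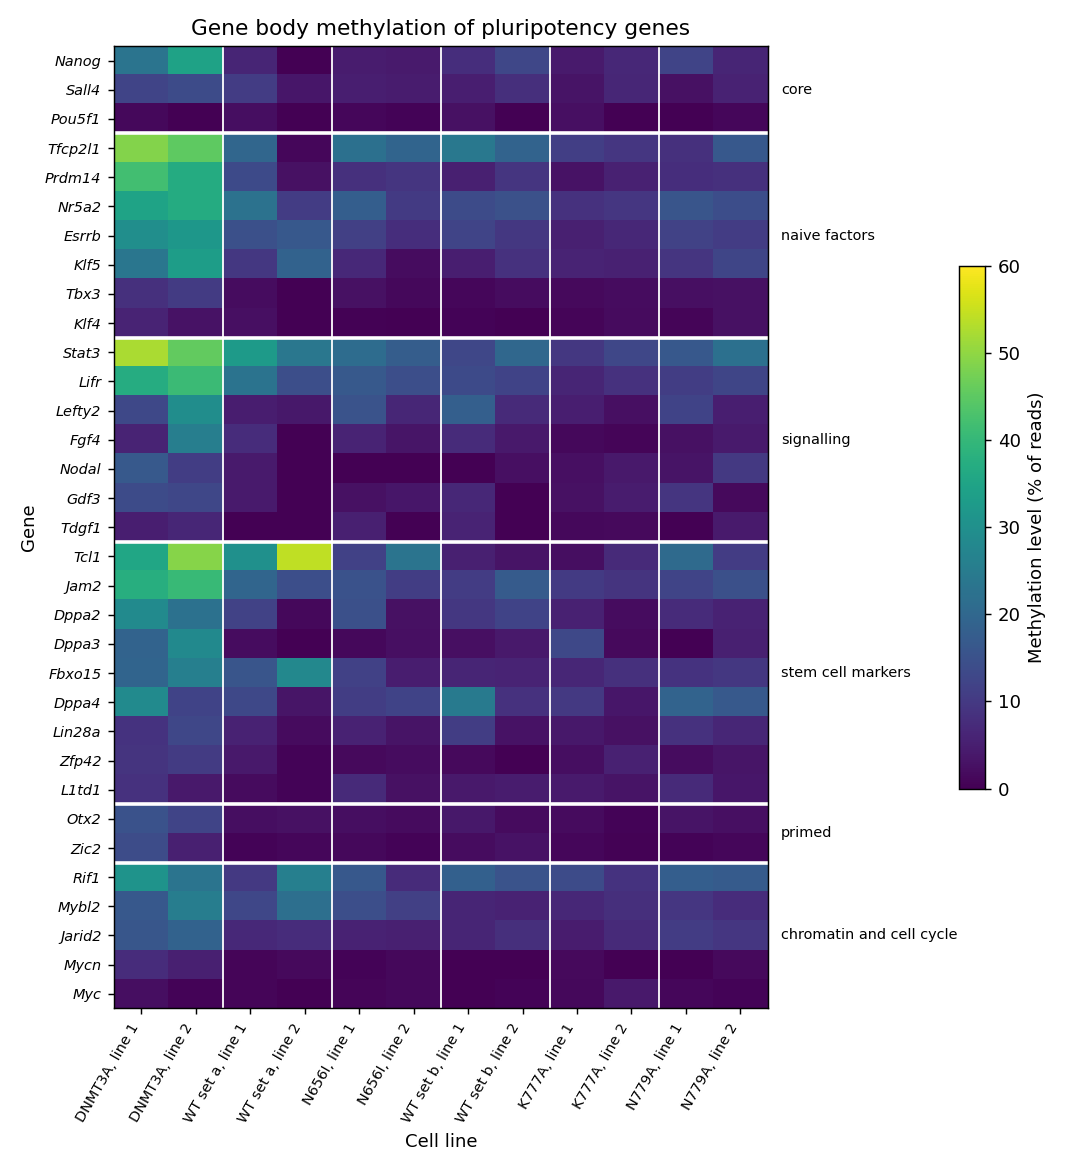
Methylation level (% of reads, colour scale from 0 to 60) of the 33 gene bodies with at least 10 reads in every line. Rows are genes in role groups, ordered by level within each group, and columns are the 12 lines by group. The DNMT3A columns are the brightest in most rows, Stat3 reaching 52.4%, while Pou5f1, Klf4, Myc and Mycn are dark throughout.

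Among the core factors, Pou5f1 had the lowest body of all 33. It was at 1.23% and 0% in the DNMT3A lines, 2.20% and 0% in WT set a, 0.990% and 0.645% in N656I, 2.78% and 0% in WT set b, 2.42% and 0% in K777A, and 0% and 1.10% in N779A. The groups overlapped, and 0.112% of all genes had a lower mean in the DNMT3A lines. Its reads numbered 44 to 202 a line, so that 0 of 108 reads in DNMT3A line 2 allows a level of up to 2.78%. Nanog behaved differently. Its body was at 23.0% and 34.6% in the DNMT3A lines, 6.14% and 0% in WT set a, 4.65% and 4.33% in N656I, 7.94% and 12.8% in WT set b, 4.42% and 6.64% in K777A, and 12.4% and 6.11% in N779A. Both DNMT3A lines were above the other 10, with Wilson intervals of 18.7% to 28.0% and 28.6% to 41.1%. Sall4, a zinc finger factor that binds OCT4 and NANOG, had 12.4% and 13.7% in the DNMT3A lines and 2.75% to 10.7% in the others. The short Sox2 body had as few as 4 reads and did not pass. It was at 2.17% and 0% in the DNMT3A lines, 4.26% in N779A line 2 and 0% in the 9 others.

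The naive factors spread over the whole range. Klf4 was at 5.91% and 2.91% in the DNMT3A lines, 2.44% and 0.224% in WT set a, 0.369% and 0% in N656I, 0.518% and 0% in WT set b, 0.857% and 1.67% in K777A, and 0.870% and 2.77% in N779A. Tbx3 was nearly as low, with 8.26% and 10.5% in the DNMT3A lines, 1.98% and 0% in WT set a, 2.69% and 1.40% in N656I, 0.976% and 2.00% in WT set b, 1.45% and 1.99% in K777A, and 2.42% and 2.63% in N779A. Tfcp2l1, a Grainyhead-like factor downstream of Stat3, was at the other end: 48.8% and 45.2% in the DNMT3A lines, 19.7% and 1.15% in WT set a, 22.2% and 19.3% in N656I, 24.0% and 19.2% in WT set b, 11.1% and 9.56% in K777A, and 8.40% and 16.5% in N779A. Esrrb had 29.6% and 31.7% in the DNMT3A lines, 14.6% and 16.6% in WT set a, 11.3% and 7.77% in N656I, 12.4% and 9.82% in WT set b, 5.36% and 6.61% in K777A, and 11.9% and 10.6% in N779A. Esrrb had 1948 to 4326 reads a line, and its K777A lines lay below all others. The Prdm14 body was at 41.8% and 36.8% in the DNMT3A lines, 13.4% and 2.70% in WT set a, 8.33% and 9.28% in N656I, 5.24% and 9.36% in WT set b, 2.90% and 5.43% in K777A, and 7.81% and 8.42% in N779A. Nr5a2, a nuclear receptor that binds the Pou5f1 promoter region, was at 34.9% and 36.8% in the DNMT3A lines, 22.7% and 10.6% in WT set a, 17.9% and 10.2% in N656I, 13.7% and 14.9% in WT set b, 8.59% and 9.52% in K777A, and 15.9% and 14.2% in N779A. In both of these genes the DNMT3A lines lay above all others. Klf5 had 23.6% and 33.4% in the DNMT3A lines. The Klf2 body did not pass.

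The signalling genes also ranged widely. Stat3 had the highest body of the 33 by mean over the lines, with 52.4% and 45.6% in the DNMT3A lines, 32.6% and 23.8% in WT set a, 21.2% and 17.6% in N656I, 12.7% and 20.1% in WT set b, 9.70% and 12.7% in K777A, and 16.5% and 22.1% in N779A. Lifr was at 37.2% and 41.0% in the DNMT3A lines, 22.8% and 14.4% in WT set a, 16.7% and 14.5% in N656I, 13.5% and 12% in WT set b, 6.28% and 8.46% in K777A, and 10.8% and 12.6% in N779A. Tdgf1 had 5.13% and 6.52% in the DNMT3A lines, 0% in both lines of WT set a, 5.26% and 0% in N656I, 5.88% and 0% in WT set b, 1.22% and 1.55% in K777A, and 0% and 4.29% in N779A. Nodal had 16.8% and 10.9% in the DNMT3A lines, 4.27% and 0% in WT set a, 0% in both N656I lines, 0% and 2.44% in WT set b, 2.56% and 4.17% in K777A, and 3.06% and 9.90% in N779A. The TGF-beta family ligand Gdf3 had 13.6% and 12.7% in the DNMT3A lines, Lefty2 13.1% and 29.5% and Fgf4, the growth factor that starts exit from the naive state, 5.93% and 25.6%, with 0% to 18.1% in the DNMT3B lines of these 3. Lefty1, with 1 read in its least covered line, did not pass. It was at 12.8% and 51.8% in the DNMT3A lines, 1.79% in N656I line 1, 0.602% in K777A line 1, 1.79% and 4.96% in N779A, and 0% in the other lines.

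Of the stem cell markers, Tcl1, a co-activator of the Akt kinase, had the highest body, and its lines of one group differed widely. It was at 35.5% and 49.1% in the DNMT3A lines, 30.0% and 54.2% in WT set a, 11.6% and 23.0% in N656I, 5.26% and 3.08% in WT set b, 2.31% and 7.09% in K777A, and 20.8% and 10.8% in N779A, over 48 to 141 reads. Zfp42 had 8.95% and 10.4% in the DNMT3A lines, 4.02% and 0.559% in WT set a, 1.56% and 1.93% in N656I, 1.52% and 0% in WT set b, 2.16% and 5.49% in K777A, and 2.04% and 3.35% in N779A. Dppa3 had 19.1% and 28.6% in the DNMT3A lines, 2.04% and 0% in WT set a, 1.34% and 2.47% in N656I, 2.52% and 4.11% in WT set b, 12.9% and 1.59% in K777A, and 0% and 5.34% in N779A. In both genes the DNMT3A lines lay above all DNMT3B lines. Jam2 had 37.7% and 40.4% in the DNMT3A lines, 19.6% and 14.3% in WT set a, 15.0% and 10.9% in N656I, 10.7% and 17.3% in WT set b, 10.3% and 9.08% in K777A, and 12.3% and 14.6% in N779A. L1td1 was low, with 8.62% and 4.20% in the DNMT3A lines, 1.71% and 0.562% in WT set a, 7.07% and 2.65% in N656I, 4.03% and 4.62% in WT set b, 4.32% and 3.25% in K777A, and 7.23% and 3.52% in N779A. Its DNMT3A lines overlapped those of 4 DNMT3B groups. Dppa2, Dppa4, Fbxo15 and Lin28a had 8.77% to 28.7% in the DNMT3A lines. Of these, Dppa2 alone had both DNMT3A lines above all DNMT3B lines, and Fbxo15 too without WT set a line 2. No read fell in the Dppa5a body, and Utf1 had at most 10 reads.

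Otx2 and Zic2, the genes of the primed state, were low outside the DNMT3A lines. Otx2 had 15.0% and 12.2% in the DNMT3A lines, 2.24% and 2.68% in WT set a, 2.23% and 1.69% in N656I, 3.76% and 1.73% in WT set b, 1.78% and 0.508% in K777A, and 3.05% and 2.36% in N779A. Zic2 had 13.9% and 5.19% in the DNMT3A lines, 0.671% and 1.11% in WT set a, 1.35% and 0.604% in N656I, 2.00% and 2.84% in WT set b, 1.08% and 0.377% in K777A, and 0.526% and 1.10% in N779A. Of the chromatin and cell cycle genes, Myc had 2.25% and 0.481% in the DNMT3A lines, 0.714% and 0% in WT set a, 0.769% and 1.19% in N656I, 0% and 0.694% in WT set b, 1.21% and 4.05% in K777A, and 1.12% and 0.667% in N779A. Jarid2, a cofactor of Polycomb complex PRC2, had 16.1% and 18.9% in the DNMT3A lines, 6.91% and 7.72% in WT set a, 5.70% and 5.38% in N656I, 6.17% and 8.16% in WT set b, 4.54% and 7.10% in K777A, and 10.7% and 9.40% in N779A, over 1960 to 5594 reads. Rif1, a regulator of replication timing, and Mybl2, a cell cycle factor, had 16.6% to 30.9% in the DNMT3A lines. In neither were both DNMT3A lines above all 10 DNMT3B lines, though they were without WT set a line 2. Mycn had 7.61% and 5.35% in the DNMT3A lines, 0.787% and 1.54% in WT set a, 0.664% and 1.38% in N656I, 0% in both lines of WT set b, 1.49% and 0% in K777A, and 0% and 1.61% in N779A. In Otx2, Zic2, Jarid2 and Mycn both DNMT3A lines were above all 10 DNMT3B lines.

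CpG density moved with the level of these bodies. Of the 33 bodies, 20 belonged to the densest quartile of all gene bodies, with 14.3 to 100 CpG sites per kb. Their median was 12.9% in the DNMT3A lines, against 32.3% for all genes of that quartile. Across the 33 bodies, level and density had a Spearman rho of -0.58 in DNMT3A (Pearson r -0.58) and of -0.76 in WT set b (Pearson r -0.73). Over all 16099 bodies rho was -0.20 and -0.12 (Pearson r -0.31 and -0.15). These correlations are across genes, which share the same libraries and are not independent replicates. In DNMT3A, 21 of the 33 were below the lower quartile of the bodies in their own decile of density. The match is coarse, since the densest decile runs from 18.4 to 100 CpG sites per kb. In WT set a, N656I, WT set b, K777A and N779A these were 21, 23, 24, 19 and 20. In the lowest decile of level within their own decile of density were 16 in DNMT3A and, in the same order of the other groups, 16, 17, 14, 8 and 11.

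**Figure D3:**
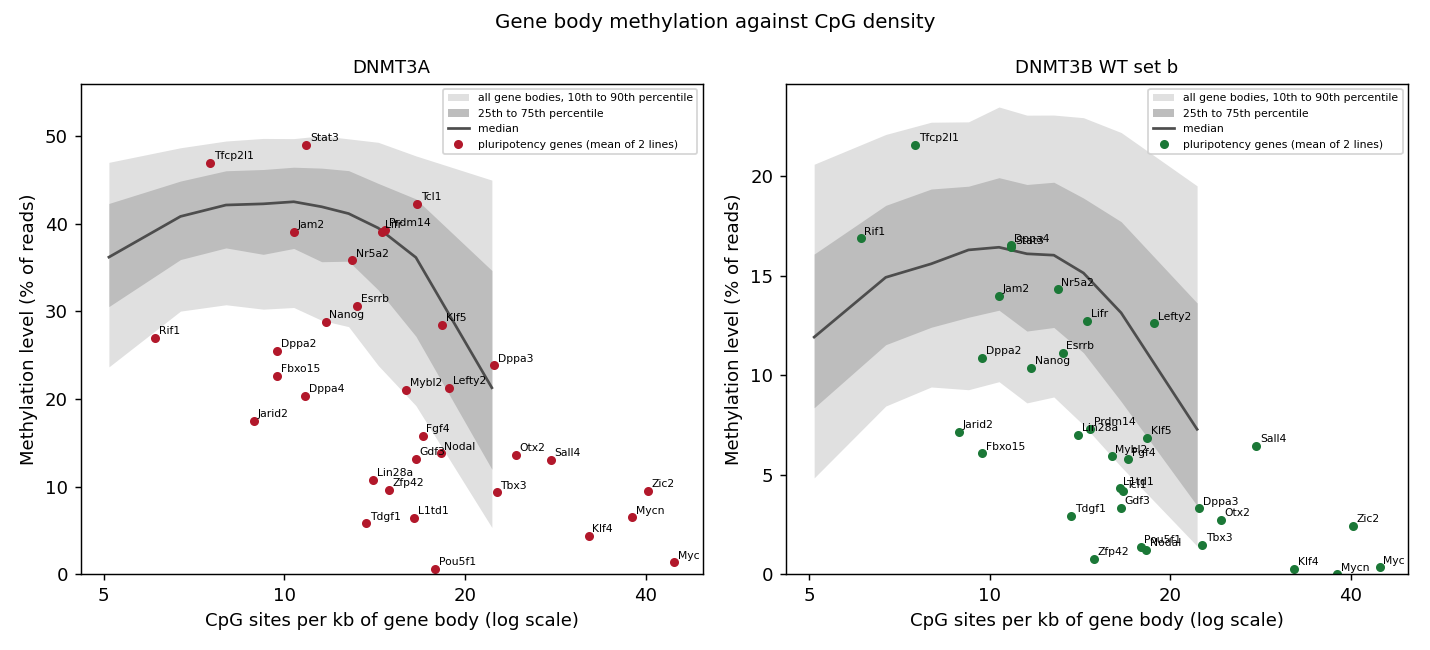
Methylation level of gene bodies (% of reads, y axis) against CpG sites per kb of body (log scale, x axis) in DNMT3A (left) and WT set b (right). Points are the 33 pluripotency genes as means of 2 lines, and the line and grey bands are the median and percentiles of all 16099 bodies by decile of density. In DNMT3A, 21 of the 33 points lie below the lower quartile of their density decile, with Pou5f1 near 0 and Stat3 and Tfcp2l1 above the median.

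The difference from all genes was also present where CpG sites were sparse. In the DNMT3A lines, sites with 1 to 4 CpG in 200 bp were at 36.5% in the pluripotency gene bodies and 43.0% in all bodies (means of 2 lines), those with 5 to 11 at 26.3% and 38.8%, and those with 12 or more at 2.39% and 5.63%. In the DNMT3B groups the sparse sites were closer, at 17.2% and 18.7% in WT set a, 13.3% and 15.3% in N656I, 14% and 16.3% in WT set b, 8.38% and 8.87% in K777A, and 13.6% and 14.6% in N779A. Within a line, the sparse sites of the pluripotency genes were below those of all bodies in all 12 lines, by 6.70 and 6.19 points in DNMT3A and by 0.357 to 3.27 points in the DNMT3B lines. With the sparse sites alone, 27 of the 38 genes and 14879 genes in all had at least 10 reads in every line. The medians were 31.7% and 37.1% in the DNMT3A lines for the 27, and 42.6% and 42.3% for all. The sparse sites divided the genes: 13 of the 27 were in the lowest decile of all genes, and 8 (Lefty2, Lifr, Nr5a2, Otx2, Prdm14, Stat3, Tcl1 and Tfcp2l1) were above the middle. The 32 sparse sites of Pou5f1 were at 0% in both DNMT3A lines. L1td1 had 3.81% and 1.56% there, Tdgf1 1.59% and 7.89%, and Lin28a 13.6% and 13.1%. By contrast, Otx2 had 52.7% and 46.8% and Prdm14 53.6% and 51.1%, above the all-gene medians. The 13 and the 8 genes were read off the values and carry no test.

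Methylation was uneven along the longest bodies. Each body was cut into 5 equal parts from its 5′ end on. Esrrb, a gene of 160512 bp at chr12:86361117-86521628, had 53.8%, 18.1%, 43.3%, 22% and 34.9% in the DNMT3A lines. Lifr, at chr15:7090614-7197489, had 53.1% in part 1, 13.0% in part 2, which takes in the RefSeq start, and 36.6%, 53.5% and 49.1% after it. Nr5a2, at chr1:136842571-136960448, had 17.0% in part 1 and 46.0% to 52.4% in the others. Jarid2, at chr13:44729474-44921643 and the longest gene at 192170 bp, had 8.91%, 25.6%, 20.3%, 11.7% and 42.1%. In WT set b the same low parts were at 9.66% (Esrrb, part 2), 4.18% (Esrrb, part 4), 3.38% (Lifr, part 2), 4.46% (Nr5a2, part 1) and 2.58% (Jarid2, part 1). The lowest part in DNMT3A was also the lowest in all 5 DNMT3B groups for Lifr, Nr5a2 and Jarid2, but not for Esrrb, in which part 4 was below part 2 in WT set a, WT set b, K777A and N779A.

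**Figure D4:**
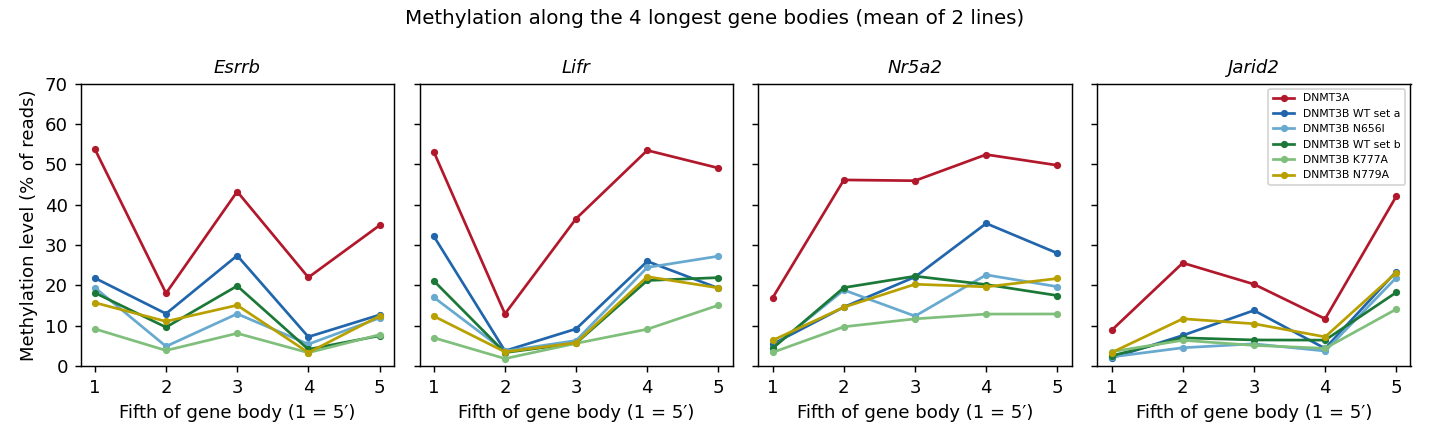
Methylation level (% of reads, y axis) in 5 equal parts of the 4 longest gene bodies, numbered from the 5′ end (x axis). Each point is the mean of the 2 lines of a group and each colour a group. The low part 2 of Lifr (13.0% in DNMT3A) and the low part 1 of Nr5a2 (17.0%) and Jarid2 (8.91%) are seen in all groups.

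DNMT3A was compared with WT set a to ask where the 2 enzymes differ. In 21 of the 33 bodies both DNMT3A lines lay above all 10 DNMT3B lines, as in 78.6% of all genes (25 of 33 and 87.7% without line 2 of WT set a). Against WT set a alone, the lines were separate and DNMT3A higher in 25 of 33 bodies (83.8% of all genes), and lower in none (0.23%). Beside WT set a line 1 alone these were 29 (94.6%) and 1 (Pou5f1, 1.15%). The median difference was 11 percentage points over the 33 bodies and 22.1 over all bodies, or 9.54 over the 35 bodies that passed without line 2, and it was 0.622 and 0.685 points for start regions (1.48 over the pluripotency genes with a minimum of 1 read, and 0 to 1.11 with a line left out). Pou5f1, Tcl1 and Myc were among the 8 bodies whose lines overlapped. In counts of methylated and unmethylated reads (edgeR quasi-likelihood test, Benjamini-Hochberg adjustment over all genes), with the change taken relative to the change of all regions, 0 of 33 bodies were called at an adjusted p under 0.05 (0% of all genes), and 0 of 26 start regions (0.00979%). At an unadjusted p under 0.05 there were 2 bodies (11.4% of all genes) and 2 start regions (6.03%), and limma called none of these genes. Without line 1 of WT set a, which leaves line 2 as the lone WT line, 7 of 33 bodies (39.8% of all genes) and 1 of 26 start regions (0.799%) were called, and without line 2 none of 35 bodies and 31 start regions.

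With no centring, so that the absolute change was tested, the DNMT3A lines were higher in 16 of 33 bodies (61.6% of all genes called). These were Nanog among the core factors, Esrrb, Nr5a2, Prdm14, Tbx3 and Tfcp2l1 of 7 naive factors, Lifr and Stat3 of 7 signalling genes, Dppa3, Jam2, L1td1 and Zfp42 of 9 stem cell markers, both primed-state genes, and Jarid2 and Mycn of 5 chromatin and cell cycle genes. The log2 change in the odds of methylation was 1.42 ± 0.27 (SE) for Jarid2 (adjusted p = 0.000694), 1.52 ± 0.31 for Lifr (adjusted p = 0.00107) and 1.26 ± 0.27 for Esrrb (adjusted p = 0.00149). It was 2.62 ± 0.56 for Otx2 (adjusted p = 0.00147) and 3.14 ± 0.89 for Nanog (adjusted p = 0.00786). Pou5f1 did not pass, at -0.95 ± 2.12 (adjusted p = 0.694), nor did Tcl1, at 0.04 ± 0.92 (adjusted p = 0.970). The median change was 2.07 over the 33 bodies and 1.81 over all. With WT set b in place of set a, 19 bodies were called (65.8% of all genes), and with all 4 WT lines 23 (76.4%). Not every one of the 16 was called in every fit, since fewer bodies were called when a DNMT3A line was left out. Leaving out a line gave 10 bodies without DNMT3A line 1 (38.3% of all genes), 10 without DNMT3A line 2 (35.6%), 22 without WT set a line 1 (71.9%) and 18 of 35 without WT set a line 2 (59.5%).

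N656I was compared with WT set a, since the library names of both lack the prefix that WT set b, K777A and N779A share. The N656I lines were separate and higher in 3 of 33 bodies (L1td1, Lefty2 and Myc, 7.06% of all genes) and lower in 7 (Esrrb, Fbxo15, Jarid2, Klf5, Otx2, Stat3 and Tcl1, 27.1%). Beside WT set a line 1 alone they were higher in 3 (11.2%) and lower in 21 (62.3%). The median difference was -0.281 points over the 33 bodies and -1.91 over all, within the spread between lines of 2.86 points (SD), and -1.46 over the 35 bodies that passed without WT set a line 2. The edgeR test called 0 of 33 bodies (0% of all genes) with or without centring, and 0 of 26 start regions (0%). At an unadjusted p under 0.05 there were 5 bodies (8.66%), and limma called none. Without line 1 of WT set a, 6 of 33 bodies were called relative to all regions (37.6% of all genes) and 6 with no centring (33.1%), and without line 2 none of 35 in either form. At Esrrb, the N656I lines had 11.3% and 7.77% against 14.6% and 16.6%, a relative log2 change of -0.46 ± 0.20 (adjusted p = 0.552).

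K777A was compared with WT set b. The K777A lines were separate and lower in 12 of 33 bodies (70.9% of all genes): Dppa2, Esrrb, Fgf4, Jam2, Lefty2, Lifr, Nanog, Nr5a2, Rif1, Stat3, Tfcp2l1 and Zic2. They were higher in 6 (Fbxo15, Klf4, Mybl2, Myc, Nodal and Zfp42), against 2.32% of all genes. Of the 6, Klf4, Myc, Nodal and Zfp42 had only a few percent in any line of either group, where counting error is large. The median difference was -1.60 points over the 33 bodies and -6.83 over all. Relative to all regions, 0 of 33 bodies (0% of all genes) and 0 of 26 start regions (0%) were called by edgeR, with 5 bodies at an unadjusted p under 0.05 (3.94%), all in the direction of higher, and none by limma. Zfp42 and Jarid2 were 2 of these 5, with relative changes of 3.19 ± 1.09 and 0.71 ± 0.25 (adjusted p = 1 for both). With no centring, Esrrb alone was lower (log2 change -0.97 ± 0.27, adjusted p = 0.0322; 12.8% of all genes called), and the median change was -0.56 over the 33 bodies against -1.03 over all. Esrrb was not called when any of the 4 lines was left out. With WT set a as the reference, 6 bodies were called (Esrrb, Fbxo15, Lifr, Mybl2, Stat3 and Tcl1; 33% of all genes), and with all 4 WT lines 3 (32.7%).

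N779A differed less from WT set b. Its lines were separate and higher in 9 of 33 bodies (Fbxo15, Jarid2, Klf4, Klf5, Mybl2, Nodal, Tbx3, Tcl1 and Zfp42, 10.7% of all genes) and lower in 3 (Dppa2, Tfcp2l1 and Zic2, 26.4%). Of the 9, Klf4, Tbx3 and Zfp42 had only a few percent in any line of either group, where counting error is large. The median difference was 0.734 points over the 33 bodies and -1.52 over all, with a spread between lines of 1.18 points (SD). No body or start region was called by edgeR with or without centring (0% of all genes), 1 body had an unadjusted p under 0.05 (3.22%), and limma called none. That body was Jarid2, with 10.7% and 9.40% against 6.17% and 8.16% and a relative change of 0.77 ± 0.25 (adjusted p = 1).

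The WT sets were made with the same enzyme. The study's supplement lists WT lines in separate tables beside different groups. A difference between rounds of profiling therefore cannot be told apart from one between lines. WT set b was separate from and above set a in 5 of 33 bodies (Dppa3, L1td1, Lefty2, Nanog and Zic2, 9.24% of all genes) and below it in 8 (Esrrb, Fbxo15, Klf5, Lifr, Mybl2, Mycn, Stat3 and Tcl1, 23.1%). Beside WT set a line 1 alone it was above in 6 (14.5%) and below in 17 (52.8%). The edgeR test called 0 of 33 bodies and 0 of 26 start regions (0% of all genes), and without line 1 of WT set a it called 8 bodies (37.5% of all genes), or 6 with no centring (32.8%). Without line 2 it called none of 35 in either form. At an unadjusted p under 0.05 there were 5 bodies (12%), and limma called none. The Tcl1 body had 30.0% and 54.2% in set a and 5.26% and 3.08% in set b (relative log2 change -3.73 ± 1.09, adjusted p = 0.361). The comparisons with a WT set share its 2 lines, so they are not independent of each other.

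The bases around a CpG moved with the level in these bodies. At sites with at most 11 CpG in 200 bp, CCGG sites in the pluripotency gene bodies were at 18.6% and 17.0% in WT set b and at 1.42% and 1.93% in K777A, and over all gene bodies at 24.0% and 2.15% (means of 2 lines). At TCGA sites the means were 18.3% in WT set b and 9.18% in K777A, at ACGT sites 11.6% and 14.2%, and at GCGC sites 5.61% and 5.44%. Over all gene bodies these were 24.6% and 9.56%, 13.2% and 16.3%, and 7.47% and 7.01%. Without CCGG sites the median difference between K777A and WT set b over the 33 bodies was -0.861 points in place of -1.60. At CCGG the N656I lines (22.3% and 15.8%) overlapped those of WT set a (25.4% and 20.5%). They were lower at TCGA (16.4% and 11.8% against 22.6% and 21.6%) and at GCGC (3% and 1.78% against 10.5% and 4.96%), and overlapped at ACGT (7.77% and 5.33% against 12.6% and 2.99%). Line 2 of WT set a was the second of each pair. DNMT3A had 33.7% at CCGG, 34.3% at ACGT, 38% at GCGC and 23.6% at TCGA, and at TCGA its lines (21.4% and 25.7%) overlapped those of WT set a (22.6% and 21.6%). Over all gene bodies DNMT3A had 43.6%, 44.8%, 48.9% and 33.8% in the same order. There its lines did not overlap those of WT set a at TCGA (33.9% and 33.8% against 29.2% and 26.2%). MspI, one of the enzymes that cut the DNA, cuts at CCGG, so these sites can lie at fragment ends; what this adds to the levels was not tested.

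Pathway partners of the pluripotency genes, which carry the LIF, Nodal and FGF signals or bind the core factors (32 genes, 29 bodies passed), had a median of 37.3% and 37.2% in the DNMT3A lines, close to the 39.6% and 39.7% of all genes and above the pluripotency genes. With no centring, 23 of the 29 were called higher in DNMT3A than in WT set a, and 4 lower in K777A than in WT set b, against 61.6% and 12.8% of all genes. Lineage genes that ES cells keep silent (20 genes, 17 bodies passed), such as Gata6 and Sox17, had 23.4% and 23.1%, with 10 called higher in DNMT3A and 3 lower in K777A. In the K777A lines their medians of 2.59% and 1.99% were below the 4.32% and 4.62% of the pluripotency genes. In start regions the medians in the DNMT3A lines were 0.5% and 1.06% for the partners (24 passed) and 2.92% and 2.72% for the lineage genes (13 passed), against 1.69% and 0.412% for the pluripotency genes. Relative to all regions none of either list was called by edgeR in any of the comparisons.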

How the data were processed

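Enhanced reduced representation bisulfite sequencing (eRRBS) of DNA cut with MspI, BfaI and MseI was done by the authors in 12 TKO ES cell lines. Per the submitters' processing notes the tools were cutadapt 1.12 (the methods give another version), Bismark 0.18.1 and Bowtie 1.2, and the build was mm10 (GRCm38). Per the methods, pairs with at least 3 methylated cytosines outside CpG in either read were discarded. The latter step removes pairs that escaped conversion together with truly methylated non-CpG sites. The authors deposited, per CpG site and line, the read counts (methylated and total), with both strands collapsed; both columns of each of the 12 lines were used, and 0 columns were of other series.

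Counts were summed over regions, and the level is methylated over total reads in percent. No coverage minimum was set for a site, and a region needed 10 reads in every line. Wilson 95% intervals and the limit for a count of 0 (3 counts of the total) cover counting error only and take reads as independent. Read copies were not marked by molecular identifiers. Sums of methylated and unmethylated reads were tested with the quasi-likelihood test of edgeR 4.0.16 (R 4.3.3) over all protein-coding genes, with all 6 groups in 1 fit and Benjamini-Hochberg adjustment at 0.05. The main fit scaled methylated and unmethylated totals separately, so a change is relative to all regions. Alternatives were limma 3.58.1, no centring, other read minimums, other site filters, other WT lines, each line left out in turn and a replicate block. Fits with no centring on other or fewer lines, and counts without line 2 of WT set a, were added after the data were seen. Per-line levels were computed with Python 3.11.15, numpy 2.4.6 and pandas 2.3.3, and figures with matplotlib 3.10.9. On simulated counts for DNMT3A against WT set a over 16099 bodies, 183 of 200 genes with a log2 change of 4 were called with 4 false calls, and none of those changed by 1 or 2, so a miss in the main fit says little about changes of that size. In the 10218 start regions none of the 200 was called even at 4. The simulation gave every line the same spread, whereas the real lines of WT set a differed more than those of any other group. Its counts may therefore not hold for these data.

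The 38 genes, their role groups and the other lists were chosen with earlier results of these data known. By the rule for named genes, body values are printed in every line for Pou5f1, Nanog, Sox2, Klf4, Esrrb, Zfp42, Dppa3, Tdgf1, Nodal, Lefty1, Otx2 and Lifr and for genes called in the 5 comparisons, and the 3 highest and 3 lowest genes of each kind of region by mean over the 12 lines are printed likewise. Start and upstream values of the other named genes, and of all other genes, are given by range and count or where their values, once seen, were singled out. The 2 lines of a group were derived independently per the study's supplement, which also states that the WT lines of both sets differ, and the labels call them biological replicates. They differed in bodies by a mean chi-square of 3.25 to 23.8 at 1 degree of freedom, which takes reads as independent.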

Additional observations from a re-analysis of the deposited data

How the results depend on the processing

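No library or setting was dropped from the main values, and the limits lie in 2 lines a group and in the coverage of WT set a line 2. Of 61 alternatives for the count of pluripotency gene bodies called (lines left out apart), 55 gave the same count as the main fit, and all 66 did so for start regions. The other 6 were fits with no centring: 16 bodies for DNMT3A against WT set a, 19 with WT set b and 23 with all 4 WT lines, and 1, 6 and 3 for K777A against WT set b, set a and all 4. Leaving out a line gave 0 to 7 bodies relative to all regions and 10 to 22 with no centring for DNMT3A (18 without WT set a line 2), 0 to 6 for N656I, 0 for K777A and N779A, and 0 to 8 for WT set b against set a, with 0 to 1 start regions for DNMT3A. The counts above 0 relative to all regions came without WT set a line 1. A replicate block in the fit called 0 bodies and 0 start regions in every comparison. Replicate numbers do not pair these lines: lines of equal number deviated together with r of -0.023 to 0.046 in bodies and -0.028 to 0.029 in start regions, 0 of 15 pairs of groups being over 0.1.

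The median level difference over bodies kept its value within the spread of lines in 35 of 39 alternatives. It was 15.7 points for DNMT3A at sites covered in all 4 lines, and for K777A -2.24 as a mean over covered sites, -1.99 at shared sites and -0.861 without CCGG sites, with -1.88 to -1.27 when a line was left out. For start regions 32 of 44 were the same. DNMT3A had 1.48 points with a minimum of 1 read. N656I had 0 at shared sites, 0 within 500 bp, -0.0214 with WT set b and, turned in sign, 0.251 at sites with at least 10 reads (11 genes) and 0.209 without WT set a line 1 (from -0.638 over the lines left out). K777A had -2.02 at such sites (2 genes), 0.448 without CCGG sites and -0.0847 with WT set a. N779A had 0.0506 at shared sites, 1.11 at sites with at least 10 reads (1 gene) and 0 without N779A line 2 (up to 0.747 over the lines left out). WT set b against set a had -1.11 at sites with at least 10 reads (4 genes) and 0.66 within 500 bp. The cause of these shifts was not tested. At low levels the start regions carry a large counting error, and how it compares with the spread between lines was not tested.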
